A study of Homo sapiens with 9 samples.

Results

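The genes described here encode the nuclear-encoded subunits of the mitochondrial respiratory chain and the ATP synthase. A gene was a member if it was protein-coding and its symbol was NDUF followed by A, B, C, S or V and digits, was SDHA to SDHD, or began with UQCR, COX4 to COX8 or ATP5. Pseudogenes and the NDUFAF assembly factors were left out. This gave 87 of the 60664 genes listed, of which 37 belong to complex I, 4 to complex II, 9 to complex III, 17 to complex IV and 20 to complex V. The prefixes miss a few true subunits, such as NDUFAB1 and CYC1, and take in a few genes that are not plain subunits: ATP5IF1, an inhibitor of the ATP synthase, COX7A2L, which joins complexes into supercomplexes, and UQCRHL, a retrogene copy of UQCRH.

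Complexes I and II pass electrons from NADH and succinate to ubiquinone, complex III hands them to cytochrome c, and complex IV hands them to oxygen. Complexes I, III and IV pump protons, and complex V, the ATP synthase, uses the proton gradient to make ATP. A small set of hydrophobic core subunits of complexes I, III, IV and V is encoded by mitochondrial DNA, whereas complex II and all remaining subunits are encoded in the nucleus and imported, so that each of the other 4 complexes needs transcripts of both genomes.

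The cells were MDA-MB-231, an established line from a human breast tumour, and their RNA was sequenced on day 6 in 3 groups of 3 samples. Scramble control (SC) cells, which carry a non-targeting hairpin, were kept in medium of 0.77 cP or of 8 cP, the latter thickened with methylcellulose. Cells with a hairpin against TRPV4, a calcium-permeable channel (shTRPV4), were kept at 8 cP. All groups therefore carried a hairpin vector, the knockdown rests on 1 TRPV4 hairpin sequence, and the hairpin at 0.77 cP is not analysed here. In the combined comparison, which sets the hairpin group at 8 cP against the scramble group at 0.77 cP, viscosity and knockdown therefore cannot be told apart.

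TRPV4 had 40, 28 and 54 counts in SC cells at 0.77 cP, 64, 45 and 24 in SC cells at 8 cP, and 7, 1 and 13 in shTRPV4 cells. Total counts ran from 64571681 to 103518036 per library. The mesenchymal and basal-type markers VIM, CD44, FN1, ZEB1, AXL, EGFR and CAV1 were at 82.3 CPM (counts scaled to the library total times its TMM factor) or more in every library, ESR1, PGR, CDH1 and FOXA1 were at 0.133 CPM or less, and GATA3, a luminal marker, lay between 11.9 and 16.4 CPM. Of the leukocyte and endothelial markers PTPRC, CD3E, CDH5 and PECAM1, PECAM1 reached 6.22 CPM and the other 3 stayed at 0.176 CPM or less. Replicate 1 of the shTRPV4 cells stood apart for the respiratory chain: its 81 tested members had a median deviation of −0.14 (log2) from their means over all libraries, against −0.03 to 0.05 in the other 8 libraries. Values without it are given below for the medians and for part of the genes named in the shTRPV4 group, not for all.

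The 5 windows that follow are the 250 bases before the annotated start (RefSeq, GRCh38.p14) of members whose levels are described below. They were chosen after the values were seen, and show a rise at both steps (ATP5MC1), the rise kept in every fit of the viscosity comparison (NDUFS6), and falls in complexes III and IV (UQCRH, UQCRQ and COX5B). Capitals mark a match to the letters of the NRF1 motif, GCGCATGCG, or the ETS motif, CCGGAAGT, on either strand.
NDUFS6, chr5:1801157-1801406, plus strand: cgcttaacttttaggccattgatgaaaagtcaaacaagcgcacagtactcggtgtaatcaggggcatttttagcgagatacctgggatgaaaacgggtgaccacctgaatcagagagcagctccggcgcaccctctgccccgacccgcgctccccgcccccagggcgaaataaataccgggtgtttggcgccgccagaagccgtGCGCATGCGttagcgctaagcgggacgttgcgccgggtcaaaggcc
ATP5MC1, chr17:48892537-48892786, plus strand: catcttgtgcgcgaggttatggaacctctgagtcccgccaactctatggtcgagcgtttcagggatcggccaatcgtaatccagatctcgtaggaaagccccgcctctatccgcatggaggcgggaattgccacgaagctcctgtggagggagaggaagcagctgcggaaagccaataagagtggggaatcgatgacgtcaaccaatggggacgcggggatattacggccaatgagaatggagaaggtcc
UQCRH, chr1:46303448-46303697, plus strand: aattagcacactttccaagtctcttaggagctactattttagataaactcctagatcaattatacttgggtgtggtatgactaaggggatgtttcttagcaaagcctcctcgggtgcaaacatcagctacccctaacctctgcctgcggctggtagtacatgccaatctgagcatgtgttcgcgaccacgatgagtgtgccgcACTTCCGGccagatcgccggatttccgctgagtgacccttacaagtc
UQCRQ, chr5:132866392-132866641, plus strand: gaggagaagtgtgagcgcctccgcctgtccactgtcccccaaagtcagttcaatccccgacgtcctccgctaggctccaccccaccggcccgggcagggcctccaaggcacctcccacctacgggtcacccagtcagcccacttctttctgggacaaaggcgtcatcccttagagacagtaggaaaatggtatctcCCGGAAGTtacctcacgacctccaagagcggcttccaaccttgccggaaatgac
COX5B, chr2:97645812-97646061, plus strand: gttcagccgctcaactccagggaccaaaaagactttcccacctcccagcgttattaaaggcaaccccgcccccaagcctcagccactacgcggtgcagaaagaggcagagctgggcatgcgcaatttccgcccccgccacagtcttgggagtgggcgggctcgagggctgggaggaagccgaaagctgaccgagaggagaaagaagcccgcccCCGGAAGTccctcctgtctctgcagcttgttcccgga
The match begins 46 bases before the start in NDUFS6, 47 in UQCRH, 54 in UQCRQ and 37 in COX5B, and ATP5MC1 held neither motif.

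NRF1 and factors of the ETS family, and YY1, are known as activators of respiratory chain genes. Over the 82 windows of 300 bases (250 before to 50 after the start) found for 69 members, 13.4% held the NRF1 letters, 14.6% the ETS letters and 12.2% the YY1 letters, AAGATGGCG, on either strand, and 35.4% held at least 1 of the 3. Over all 35116 windows of that length these shares were 1.92%, 4.14%, 1.75% and 7.33%. The NRF1 letters are nearly their own reverse complement, so that a site can match on both strands, and each window was counted once. A match is to letters only and was found in members that rose (NDUFS6), fell (UQCRH, UQCRQ and COX5B) and did neither (NDUFA8 and COX8A).

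Of the 87 members, 81 passed the filter on low counts. The 6 that did not were COX4I2, COX6A2, COX6B2, COX8C, ATP5MF-PTCD1 and ATP5MGL. COX4I2 and COX6A2, isoforms of lung and of heart and skeletal muscle, had 0 counts in all 9 libraries, which allows up to 0.04675 CPM in the shallowest library (3 counts). COX6B2 had 2 to 11 counts and COX8C, like COX6B2 a testis isoform, 0 to 2. The muscle isoform COX7A1 and the testis isoform COX7B2 were tested but had 8 to 27 and 8 to 32 counts. Their ubiquitous counterparts COX4I1, COX6A1, COX6B1, COX7A2, COX7B and COX8A had at least 4710 counts in every library. NDUFV2 and NDUFA7 also had few counts, 60 to 109 and 4 to 16, as did NDUFA13 with 118 to 230; each shares 771, 452 or 568 exon bases on its own strand with another annotated gene, so that reads of these genes could be left uncounted or split.

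All members together took 8803, 8736 and 8523 CPM in SC cells at 0.77 cP, 8262, 8705 and 8401 CPM in SC cells at 8 cP, and 7549, 8247 and 8633 CPM in shTRPV4 cells. The 3 groups overlapped. By complex, the sums showed the same overlap for complexes I, II and V. Complex IV took 1689, 1612 and 1554 CPM in SC cells at 0.77 cP against 1450, 1550 and 1442 CPM at 8 cP, and 1246, 1432 and 1532 CPM in shTRPV4 cells. Both groups at 8 cP thus lay below 0.77 cP, SC cells by a gap of a few CPM. Complex III took 1098, 1061 and 1041 CPM in SC cells at 0.77 cP, 982, 1050 and 1005 CPM at 8 cP and 870.2, 976.3 and 992.5 CPM in shTRPV4 cells, and the last group lay below SC cells at 0.77 cP in every library. Without shTRPV4 replicate 1 the remaining shTRPV4 sums of both complexes still lay below all of 0.77 cP. These are sums of reads, not per length, and no test was run on them.

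**Figure D1:**
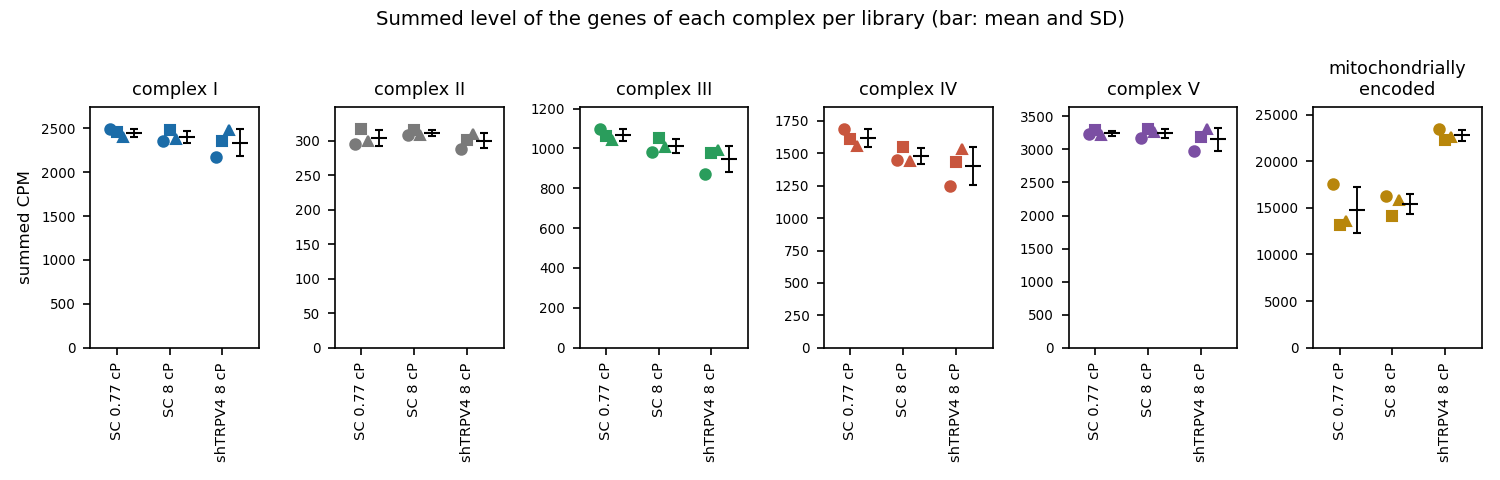
Summed CPM (y axis, from 0) of the member genes of each complex and of the 13 mitochondrially encoded subunits, in each library of the 3 groups (circle, square and triangle are replicates 1, 2 and 3, and bars give the mean and SD). The nuclear sums overlap between groups apart from complexes III and IV, whereas the mitochondrially encoded sum lies between 22310 and 23470 CPM in shTRPV4 cells and at 17600 CPM or less in all SC libraries.

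The comparison of SC cells at 8 cP with SC cells at 0.77 cP asks what 6 days in thick medium change. Few respiratory chain genes were called, and their changes were small. NDUFS6, NDUFA9 and NDUFV3 of complex I, COX5A of complex IV and ATP5F1A and ATP5MC1 of complex V rose, and NDUFS4 of complex I and UQCRB of complex III fell, whereas none of the 4 complex II genes was called in edgeR (SDHB had an unadjusted p under 0.05 and was called higher in DESeq2). These are 6 higher and 2 lower of 81 tested members, where 9.57% of all 18264 genes tested were called higher and 9.69% lower at an adjusted p of 0.05 (edgeR's quasi-likelihood test, Benjamini-Hochberg over all genes tested). Where a change of at least 0.2 (log2, either direction) was also required, 3 members were higher and 2 lower, against 6.43% and 8.44% of all genes. The median log2 fold change of the members was −0.01, as was that of all genes tested. By complex it was 0.02, 0.03, −0.02, −0.13 and −0.01 for complexes I to V. Of the 13 tested complex IV members, 10 were below 0 and 3 above. Among these, 6 were lower at an unadjusted p under 0.05 in edgeR, and 1 was called lower in DESeq2. COX7C, COX5B, COX7A2 and COX6C had −0.24 to −0.23 without overlap, and none of them was called in edgeR. A fit of the 6 SC libraries alone called 6 members higher and 15 lower. The shares of all genes called in that fit are not given here, so these counts have no background beside them.

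NDUFS6, an accessory subunit that holds a zinc ion, had 66.9, 69.1 and 73.6 CPM at 0.77 cP and 80.5, 81.7 and 84.2 CPM at 8 cP. The groups did not overlap, and the log2 fold change was 0.23 ± 0.05 (SE, n = 3 per group, adjusted p = 0.00659), called in each of the 9 fits that left out 1 library. ATP5MC1, 1 of 3 genes for the same c subunit of the rotor ring, had 61.5, 63.3 and 71.1 CPM at 0.77 cP and 72.5, 77.5 and 82.2 CPM at 8 cP. Its log2 fold change was 0.24 ± 0.06 (adjusted p = 0.0111), again without overlap, and the call was lost without SC 0.77 cP replicate 1 or SC 8 cP replicate 3 (0.21 in each case). The other two c-subunit genes, ATP5MC2 and ATP5MC3, had log2 fold changes of 0.04 and 0.02 and were not called.

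COX5A, a matrix-side subunit of complex IV, had 81.5, 87.3 and 86.0 CPM at 0.77 cP and 93.8, 94.4 and 95.8 CPM at 8 cP. Every 8 cP library was higher, with a log2 fold change of 0.16 ± 0.04 (adjusted p = 0.0235). ATP5F1A, the alpha subunit of the catalytic head, had 425.5, 461.3 and 457.9 CPM at 0.77 cP and 495.0, 480.4 and 497.0 CPM at 8 cP. This was a log2 fold change of 0.13 ± 0.04 (adjusted p = 0.0474), whereas its partner in the catalytic hexamer, ATP5F1B, had 0.00 (adjusted p = 0.986). The call of ATP5F1A was also lost in 7 of the 10 other settings, among them upper quartile scaling, a GC offset, a length offset and a fit of the 6 SC libraries alone. NDUFA9, an accessory subunit of complex I, showed a log2 fold change of 0.32 ± 0.10 (adjusted p = 0.0358), from 5.92 to 7.93 CPM at 0.77 cP to 8.11 to 9.41 CPM at 8 cP. NDUFA9 shares 1103 exon bases with other genes on its strand.

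NDUFS4, an accessory subunit known from inherited complex I deficiency, had 105.7, 97.4 and 93.3 CPM at 0.77 cP and 80.9, 89.3 and 79.1 CPM at 8 cP. The groups did not overlap, and the log2 fold change was −0.25 ± 0.08 (adjusted p = 0.0478). UQCRB, the ubiquinone-binding subunit of complex III, had 251.7, 219.5 and 205.6 CPM at 0.77 cP and 177.7, 201.6 and 181.5 CPM at 8 cP, a log2 fold change of −0.27 ± 0.08 (adjusted p = 0.0352). The highest of its values was that of SC 0.77 cP replicate 1. NDUFS4 and UQCRB lost their calls without that library (−0.19 and −0.18), and also without SC 0.77 cP replicate 2, SC 8 cP replicate 1 or SC 8 cP replicate 3, where they lay between −0.28 and −0.21. NDUFS4 lost it without shTRPV4 replicate 2 too (−0.25).

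NDUFS6 alone of the 8 was called in all 9 fits without 1 library. COX5A, NDUFA9, NDUFV3 and ATP5F1A kept their calls in 6, 6, 5 and 3 of the 9 and the rise in each of them. The number of members called was 1 without SC 0.77 cP replicate 1 and 1 without SC 8 cP replicate 3, 3 without SC 0.77 cP replicate 2 and 5 without SC 8 cP replicate 1, but 13 without SC 0.77 cP replicate 3 and 23 without shTRPV4 replicate 1. The last library is in neither group compared, and enters through the estimate of the spread, the scaling and the filter that all libraries share.

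**Figure D2:**
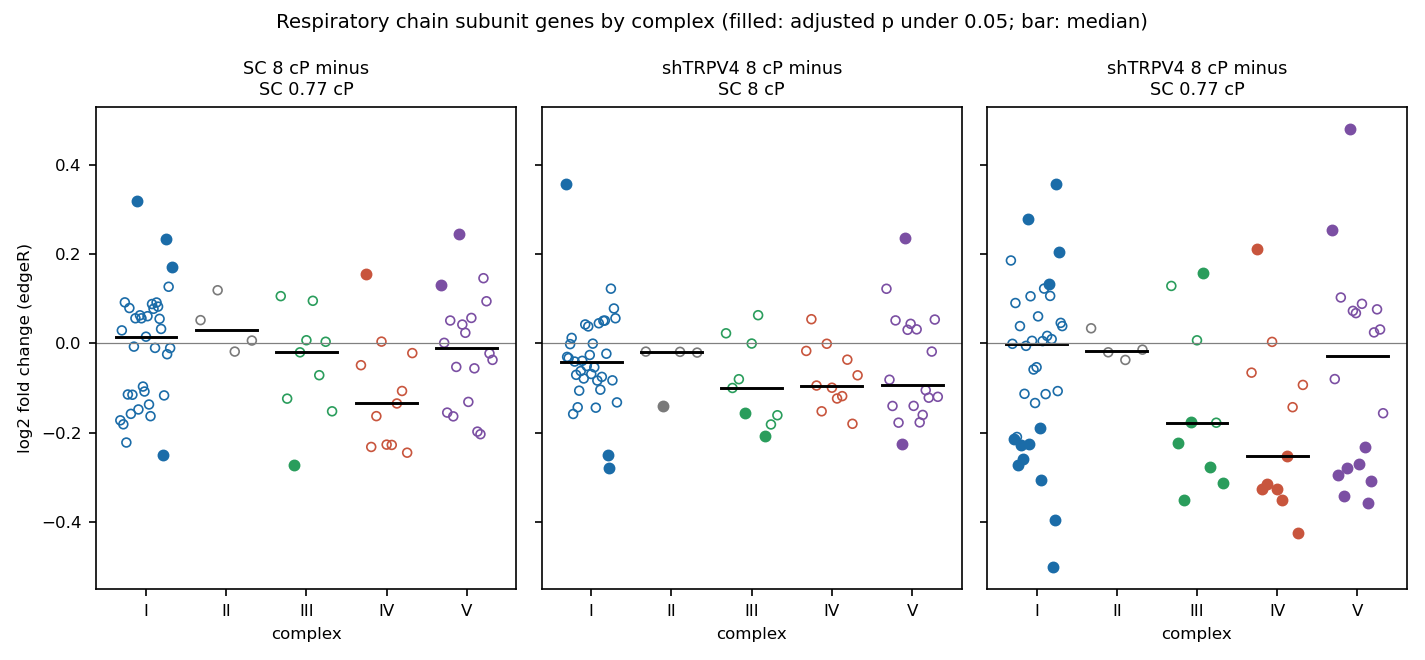
Log2 fold change (y axis) of each tested member with at least 1 CPM in SC cells at 8 cP, by complex (x axis), for the 3 comparisons. Filled points passed an adjusted p of 0.05, and black bars are the median of all tested members of a complex. In the right panel most filled points of complexes III, IV and V lie below 0, and none of complex II is filled there.

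The comparison of shTRPV4 cells with SC cells at 8 cP asks what the TRPV4 hairpin changes in thick medium. NDUFA1 of complex I and ATP5MC1 rose, and NDUFS4 and NDUFS5 of complex I, SDHB of complex II, UQCRC1 and UQCRH of complex III and ATP5IF1 fell. These are 2 higher and 6 lower of 81, where 9.02% of all genes were called higher and 11% lower. With the threshold of 0.2 they were 2 and 4, against 7.27% and 8.71% of all genes. No complex IV gene was called in edgeR or in DESeq2, and 2 had an unadjusted p under 0.05. The estimate was below 0 for 60 and above 0 for 21 members, with a median of −0.06 against 0.00 for all genes. Of all genes with transcripts under 1000 nt, 1550 were below 0 and 1474 above. Of all genes of 1000 nt or more these were 7541 and 7662. Without shTRPV4 replicate 1 the members' median was 0.00 and 5 members were called, and without shTRPV4 replicate 3 they were −0.12 and 18. Without SC 8 cP replicate 1 or SC 8 cP replicate 2, 4 were called. This comparison and the one on viscosity share the SC 8 cP libraries.

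NDUFA1, a small accessory subunit encoded on the X chromosome that is needed for complex I assembly, had 62.2, 65.2 and 59.1 CPM in SC cells and 67.4, 81.6 and 90.04 CPM in shTRPV4 cells. Every shTRPV4 library was higher, and the log2 fold change was 0.36 ± 0.08 (adjusted p = 0.00436). Its level at 0.77 cP, 70.1 ± 2.0 CPM (SD), lay within the shTRPV4 range. ATP5MC1 had 72.5, 77.5 and 82.2 CPM in SC cells and 88.8, 89.6 and 94.9 CPM in shTRPV4 cells. This was again a rise without overlap, of 0.24 ± 0.06 (adjusted p = 0.0111), lost only without SC 8 cP replicate 1 (0.19), whereas ATP5MC2 and ATP5MC3 had 0.03 and 0.04 and were not called.

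ATP5IF1, the inhibitor that blocks the ATP synthase from running in reverse, had 112.8, 121.6 and 117.0 CPM in SC cells and 95.6, 99.5 and 105.7 CPM with the hairpin. The log2 fold change was −0.22 ± 0.05 (adjusted p = 0.00501), without overlap. UQCRC1, a core protein of complex III, had 206.4, 207.8 and 210.3 CPM in SC cells and 185.7, 188.2 and 186.8 CPM in shTRPV4 cells. Here the replicates lay close together, and the log2 fold change was −0.16 ± 0.04 (adjusted p = 0.0101). The calls of ATP5IF1, UQCRC1 and NDUFA1 were kept in all 9 fits without 1 library. The Rieske protein gene UQCRFS1, also of complex III, had 0.06 and was not called.

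NDUFS5, an accessory subunit of complex I, had 200.5, 220.9 and 208.2 CPM in SC cells and 150.2, 177.4 and 191.8 CPM with the hairpin, a log2 fold change of −0.28 ± 0.07 (adjusted p = 0.0138) that lost its call without SC 8 cP replicate 2 (−0.24) and was −0.19 without shTRPV4 replicate 1. UQCRH, the hinge protein that helps bind cytochrome c1, had 194.3, 210.1 and 197.2 CPM in SC cells and 152.4, 185.4 and 183.9 CPM with the hairpin, a log2 fold change of −0.21 ± 0.07 (adjusted p = 0.0361). The lowest value of each was that of shTRPV4 replicate 1, and without that library UQCRH had −0.12 and was not called. It was not called without any 1 of the SC 8 cP libraries either (−0.23 to −0.17). UQCRH has 4 annotated pseudogenes, none above 0.00971 CPM on average. Its retrogene copy UQCRHL had means of 19.8 CPM in SC cells at 8 cP and 17.5 CPM with the hairpin. The log2 fold change of UQCRHL was −0.18 and was not called. How reads were divided between UQCRH and UQCRHL was not tested.

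NDUFS4 had 58.5, 73.3 and 77.9 CPM in shTRPV4 cells, below all SC libraries at 8 cP, with a log2 fold change of −0.25 ± 0.08 (adjusted p = 0.0471). It kept its call in 3 of 9 fits without 1 library and was at −0.14 without shTRPV4 replicate 1. The call was also lost with the replicate block, with a GC offset and with only the 6 libraries of the comparison. SDHB, the iron-sulfur subunit of complex II, had 84.8, 88.0 and 85.3 CPM in SC cells at 8 cP and 77.4, 75.9 and 81.1 CPM in shTRPV4 cells. It fell by 0.14 on the log2 scale (adjusted p = 0.0344) to values that overlapped those at 0.77 cP, 77.2, 80.4 and 80.1 CPM, and its call was kept in 4 of 9 such fits, with −0.15 to −0.12 in the others. The remaining complex II genes, SDHA, SDHC and SDHD, lay within 0.06 of 0 in each of the 3 comparisons.

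**Figure D3:**
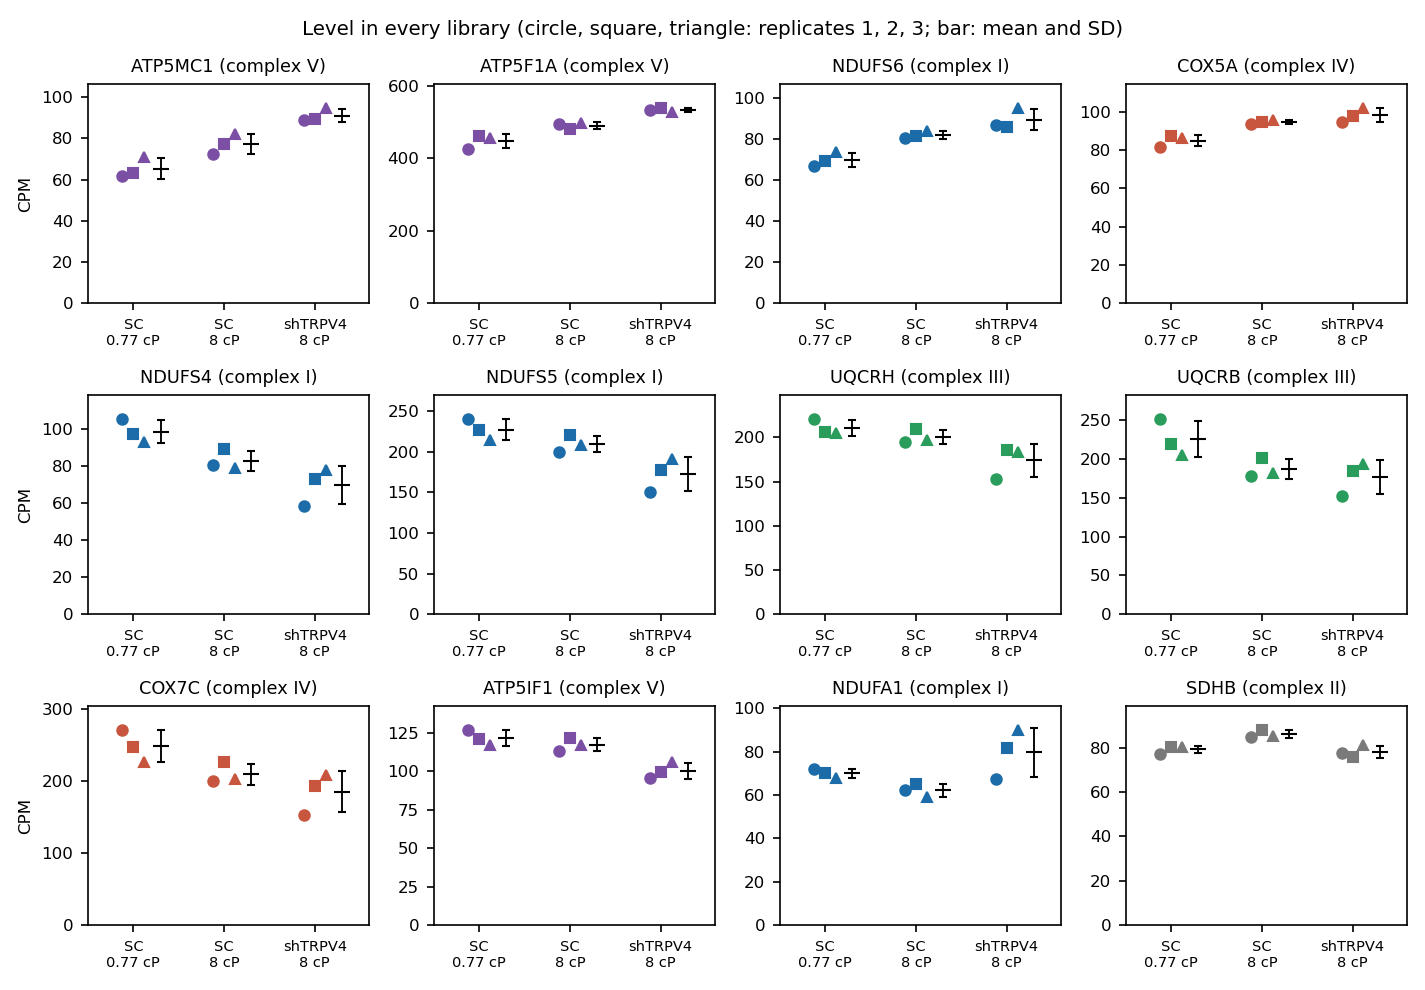
CPM (y axis, from 0) of 12 members in each library of the 3 groups, with the mean and SD as bars. ATP5MC1 rises and NDUFS4 falls at each step, ATP5F1A, NDUFS6 and COX5A are lowest at 0.77 cP, and NDUFA1 and SDHB depart from the other groups in SC cells at 8 cP.

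The combined comparison, whose groups differ in hairpin and viscosity, held most of the calls. In it 8 members rose and 27 fell of 81 tested, where 20.4% of all genes were called higher and 22% lower. With the threshold of 0.2 there were 6 and 25, against 16.3% and 18.7% of all genes. The median of the members was −0.06 and that of all genes −0.01, but without shTRPV4 replicate 1 the members' median was also −0.01, and without shTRPV4 replicate 3 it was −0.11. Of the 35 members called, 33 did not overlap between the groups, as was so for 95.8% of all called genes, and 34 had the SC 8 cP mean between the other group means, against 82.8% of all called genes. Of the 35, 24 were called in this comparison alone, and 25 kept their call in all 9 fits without 1 library. The shares of all called genes that did so are not given here, so the counts of 24 and 25 are not read as a result about the members. The members called were 25 without SC 0.77 cP replicate 1 and 38 without shTRPV4 replicate 3. Leaving out shTRPV4 replicate 1 gave 13 higher members, and leaving out SC 0.77 cP replicate 1 or shTRPV4 replicate 2 gave 5.

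In complex I, in the combined comparison, 4 members rose and 9 fell (10.8% and 24.3%). The 7 core subunits, which carry the flavin and iron-sulfur clusters, included 2 that rose (28.6%) and none that fell. Of all genes, 20.4% rose and 22% fell. None of the 7 fell at an unadjusted p under 0.05 in edgeR either, and DESeq2 called 3 higher and 0 lower. Their median of 0.10 was the value of NDUFV2, which had few counts. NDUFS8 rose by 0.20 ± 0.04 (adjusted p = 0.00151) and NDUFS1, which carries several iron-sulfur clusters, rose from 96.8, 98.9 and 101.9 to 109.3, 110.0 and 107.2 CPM, by 0.13 ± 0.04 (adjusted p = 0.0175). NDUFV1, which binds the flavin, had 0.05 and was not called. NDUFS1 lost its call without SC 0.77 cP replicate 1 or shTRPV4 replicate 2 (0.12 and 0.13). Of the 30 accessory subunits 2 rose (NDUFS6, 0.36, and NDUFA9, 0.28) and 9 fell, or 6.67% and 30%, with a median of −0.06.

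NDUFS4 had the largest fall among the 35 called members. Its 3 shTRPV4 libraries, at 58.5, 73.3 and 77.9 CPM, lay below all of SC cells at 8 cP, which lay below all of SC cells at 0.77 cP, and the log2 fold change over both steps was −0.50 ± 0.08 (adjusted p = 0.000204), or −0.39 without shTRPV4 replicate 1. NDUFS5 followed with −0.39 ± 0.07 (adjusted p = 0.000442), from 240.8, 227.3 and 214.4 CPM at 0.77 cP to 150.2, 177.4 and 191.8 CPM. NDUFB7, a subunit of the membrane arm, fell by 0.31 (adjusted p = 0.000419). Without shTRPV4 replicate 1, NDUFS5 was at −0.30 and NDUFB7 at −0.25. NDUFA2, NDUFA5, NDUFA11, NDUFB1, NDUFB6 and NDUFA4 had log2 fold changes of −0.27 to −0.19, all called, and NDUFB6 alone of these overlapped between the groups. NDUFA4, named for complex I but now known as a complex IV subunit, had −0.23 (adjusted p = 0.0217). Counted with complex IV it left complex I at 4 higher and 8 lower. Without SC 0.77 cP replicate 1 the calls of NDUFA4 (−0.18), NDUFB1 (−0.20), NDUFB6 (−0.15), NDUFA11 (−0.19) and NDUFA9 (0.26) were lost. Without shTRPV4 replicate 1 those of NDUFA4 (−0.13), NDUFB1 (−0.12), NDUFB6 (−0.11) and NDUFA9 (0.26) were lost. NDUFB1, NDUFB6 and NDUFA9 also lost theirs without SC 0.77 cP replicate 2 (−0.21, −0.18 and 0.20), NDUFA11 without SC 0.77 cP replicate 3 (−0.18), and NDUFB6 and NDUFA9 without shTRPV4 replicate 2 (−0.20 and 0.27).

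In complex III, 5 of 9 members fell and 1 rose (55.6% and 11.1%), where 22% of all genes fell and 20.4% rose. UQCRB fell by 0.35 (adjusted p = 0.00335), and UQCRQ, a small subunit next to cytochrome b, went from 118.8, 110.2 and 108.7 to 79.6, 93.4 and 99.0 CPM, a log2 fold change of −0.31 ± 0.07 (adjusted p = 0.00233). UQCRH (−0.28), UQCR11 (−0.22) and UQCRC1 (−0.18) also fell. Without shTRPV4 replicate 1 these 5 remained called, with UQCRB at −0.25, UQCRQ at −0.23 and UQCRH at −0.19. UQCRFS1, the Rieske iron-sulfur protein that takes electrons from ubiquinol, went the other way, from 120.0, 126.8 and 128.9 to 130.6, 140.9 and 147.7 CPM. Its log2 fold change was 0.16 ± 0.05 (adjusted p = 0.0195), and the call was lost without SC 0.77 cP replicate 1 (0.13), shTRPV4 replicate 2 (0.15) or shTRPV4 replicate 3 (0.12). UQCRC2, the partner of UQCRC1, had 0.01 and was not called.

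In complex IV, 6 of 13 tested members fell and 1 rose (46.2% and 7.69%), where 22% of all genes fell and 20.4% rose. COX7C, a small subunit found in all tissues, had 271.4, 247.4 and 226.8 CPM at 0.77 cP, 200.1, 226.6 and 202.9 CPM in SC cells at 8 cP and 153.7, 193.9 and 208.5 CPM in shTRPV4 cells. Its shTRPV4 libraries lay below all of 0.77 cP, and the log2 fold change was −0.42 ± 0.09 (adjusted p = 0.00147). COX7A2 had 242.3, 223.5 and 207.5 CPM at 0.77 cP and 146.4, 185.8 and 196.1 CPM with the hairpin, a log2 fold change of −0.35 ± 0.09 (adjusted p = 0.0041). COX5B, COX6C and COX6A1 had −0.33, −0.33 and −0.31, and COX7A2L had −0.25 (adjusted p = 0.00143). None of these 6 overlapped between the groups, and their calls were kept in all 9 fits without 1 library. Without shTRPV4 replicate 1, COX7C was at −0.30, COX7A2 at −0.23, COX5B at −0.24 and COX6C at −0.21. COX5A rose by 0.21 ± 0.04 (adjusted p = 0.00133), from 81.5, 87.3 and 86.0 to 94.9, 98.0 and 102.0 CPM. COX4I1, the largest nuclear-encoded subunit, had −0.07 (adjusted p = 0.309), and COX6B1 had 0.00 (adjusted p = 0.965).

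In complex V, 2 of 18 tested members rose and 7 fell (11.1% and 38.9%), where 20.4% of all genes rose and 22% fell. ATP5MC1, with 61.5, 63.3 and 71.1 CPM at 0.77 cP and 88.8, 89.6 and 94.9 CPM in shTRPV4 cells, had the largest rise of the 35 members called, a log2 fold change of 0.48 ± 0.06 (adjusted p = 1.43e-05). ATP5MC2 and ATP5MC3 had 0.07 and 0.07 and were not called. ATP5F1A rose by 0.25 ± 0.04 (adjusted p = 0.000256), to 534.0, 539.8 and 528.8 CPM, while ATP5F1B had −0.08 (adjusted p = 0.169).

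Other subunits of the ATP synthase fell. ATP5MJ, a small subunit of the membrane part, had −0.36 ± 0.08 (adjusted p = 0.00183). ATP5F1E, the epsilon subunit of the central stalk, went from 268.5, 243.7 and 244.1 to 174.8, 194.4 and 228.3 CPM, a log2 fold change of −0.34 ± 0.08 (adjusted p = 0.00257). ATP5F1C, the gamma subunit that forms the rotating shaft, had −0.29 (adjusted p = 0.000848) and ATP5IF1 −0.28 (adjusted p = 0.000367). ATP5MK, ATP5ME and ATP5MG had −0.31, −0.27 and −0.23. Without shTRPV4 replicate 1, ATP5MJ was at −0.26, ATP5F1E at −0.25 and ATP5MK at −0.20. ATP5ME overlapped between the groups and kept its call in 2 of 9 fits without 1 library, with −0.40 to −0.13 over the 9. ATP5MK and ATP5MG lost theirs without SC 0.77 cP replicate 1 (−0.22 and −0.19).

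**Figure D4:**
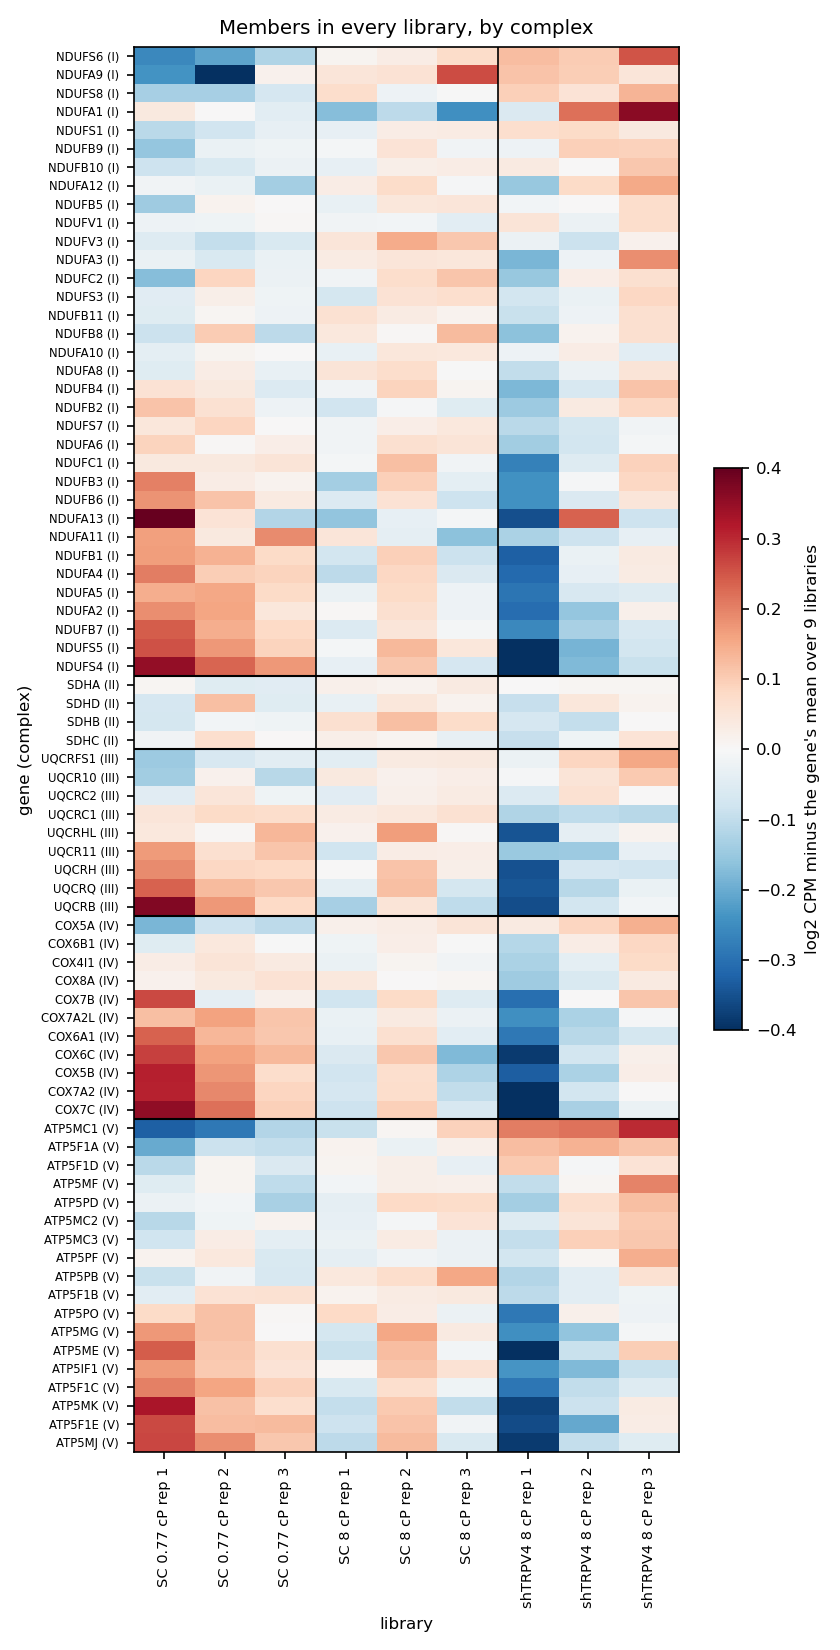
Colour gives log2 CPM minus the gene's mean over the 9 libraries (scale limited at 0.4 in either direction) for 76 members with more than 1 CPM in every library (rows, by complex and within it by the log2 fold change of the combined comparison) in each library (columns). Replicate 1 of the shTRPV4 cells is the bluest column and replicate 1 of SC cells at 0.77 cP the reddest for the falling genes, while ATP5MC1, NDUFS6 and ATP5F1A run the opposite way.

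Over all genes tested, the log2 fold changes varied with transcript length in the viscosity and combined comparisons. The members are short, with a median canonical transcript of 756 nt against 2654 nt for all genes tested. In the viscosity comparison the median log2 fold change of all genes went from −0.06 in the shortest of 5 equal bins of length, which holds 53 of the 81 members, to 0.04 in the longest, and in the combined comparison from −0.06 to 0.03. Between shTRPV4 and SC cells at 8 cP the medians of the 5 bins lay between −0.01 and 0.01. Among the 49 tested members under 1000 nt, 3 were higher and 16 lower in the combined comparison (6.12% and 32.7%). Among the 32 others 5 were higher and 11 lower (15.6% and 34.4%), so the share that fell was similar in both. For all genes under 1000 nt, 7.47% were higher and 15.7% lower, and for all genes of 1000 nt or more 23.05% and 23.28%.

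With a per-library offset for length, 18 members were higher and 26 lower in the combined comparison, against 21.8% and 21.9% of all genes. In the viscosity comparison 10 and 2 were called, against 11% and 10% of all genes, and between shTRPV4 and SC cells at 8 cP 3 and 12, against 10.2% and 11.9%. The median of the members was then −0.01, 0.04 and −0.06. Without the offset, the 3 members under 1000 nt that rose in the combined comparison were ATP5MC1, NDUFS6 and NDUFS8, and 16 of that length fell. Whether length or RNA quality had a part in the falls was not tested further.

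**Figure D5:**
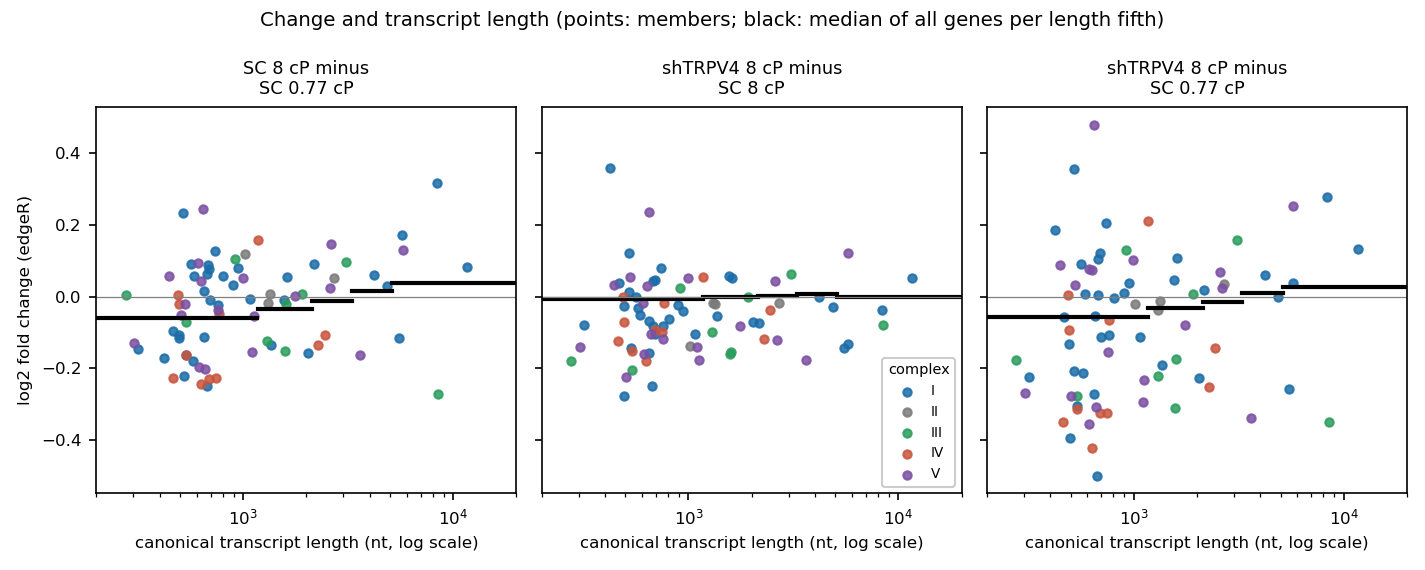
Log2 fold change (y axis) of members with at least 1 CPM in SC cells at 8 cP against the length of the canonical transcript (x axis, log scale), coloured by complex, for the 3 comparisons. Black lines are medians of all genes tested in each of 5 bins of length. Most members lie in the shortest bin, and in the combined comparison they lie on both sides of its median of −0.06.

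The mitochondrially encoded partners of these subunits moved differently. All 13 were tested. Between shTRPV4 and SC cells at 8 cP, 12 rose and the median log2 fold change was 0.60, against −0.06 for the nuclear-encoded members, and in the combined comparison 12 rose with a median of 0.67. In the viscosity comparison none was called in edgeR or DESeq2 and none had an unadjusted p under 0.05, with a median of 0.07. MT-CYB, cytochrome b of complex III, had 1018, 718.8 and 806 CPM in SC cells at 0.77 cP, 951.5, 803.6 and 925.3 CPM in SC cells at 8 cP and 1572, 1459 and 1469 CPM in shTRPV4 cells. The shTRPV4 libraries lay above all 6 others, and the log2 fold change against SC cells at 8 cP was 0.75 ± 0.10 (adjusted p = 6.68e-05).

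MT-ATP8 and MT-ATP6 of complex V rose by 0.74 and 0.69 in that comparison and MT-CO3 of complex IV by 0.41. MT-ND3 of complex I had 0.13 and was not called. Complex II has no mitochondrially encoded subunit. Reads of mitochondrial genes made up 2.039% to 2.581% of all counts in SC cells at 0.77 cP, 2.225% to 2.437% in SC cells at 8 cP and 3.275% to 3.399% in shTRPV4 cells. Nuclear-encoded members made up 0.847% to 0.874%, 0.823% to 0.863% and 0.770% to 0.866%. The difference between the nuclear-encoded and mitochondrially encoded sets was not itself tested, and more mitochondria per cell and more transcript per mitochondrion cannot be told apart in bulk RNA.

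Of 6 genes of subunits, paralogs and readthroughs that the rule misses, 5 were tested and NDUFC2-KCTD14 was not. STMP1, a small complex III subunit, rose at each step, by 0.20 (adjusted p = 0.00992) and 0.19 (adjusted p = 0.0103). NDUFAB1, the acyl carrier protein in complex I, had −0.02 and 0.15 and was not called. CYC1 had −0.03 with viscosity, 0.03 with the hairpin and −0.0033 in the combined comparison. DMAC2L had 0.17, −0.01 and 0.15, and neither of these genes was called. NDUFA4L2, a paralog of NDUFA4, had few reads, 0.202, 0.172 and 0.185 CPM at 0.77 cP and 0.0437, 0.0383 and 0.0111 CPM with the hairpin, and fell by 2.55 on the log2 scale in the combined comparison (adjusted p = 0.00109), with −1.03 and −1.52 at the single steps, neither called. Of 61 assembly factors, which build the complexes but are not part of them, 5 rose and 3 fell with viscosity, 4 rose and 4 fell with the hairpin, and 16 rose and 9 fell in the combined comparison, with a median of 0.04 there. As shares of the list these are 8.20% and 4.92%, 6.56% and 6.56%, and 26.2% and 14.8%, to be read against the shares of all genes given above for each comparison. LRPPRC, which stabilizes mitochondrial mRNA, rose by 0.29 with viscosity (adjusted p = 0.000862). OXA1L, which inserts subunits into the inner membrane, rose by 0.26 with the hairpin (adjusted p = 0.00201), and COX10, which makes heme for complex IV, fell by 0.48 (adjusted p = 6.70e-05).

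Of 20 tested genes of the electron carriers and other quinone-linked dehydrogenases, 3 rose with viscosity and none fell in edgeR or DESeq2 (1 was lower at an unadjusted p under 0.05). The 3 are 15% of the list, where 9.57% of all genes rose and 9.69% fell. CYCS, cytochrome c, rose by 0.19 (adjusted p = 0.0233), and GPD2, the mitochondrial glycerol-3-phosphate dehydrogenase, rose by 0.17 (adjusted p = 0.00981). With the hairpin 2 rose and 4 fell, or 10% and 20% of the list, where 9.02% of all genes rose and 11% fell. COQ7, a hydroxylase of ubiquinone synthesis, had 8.75, 9.10 and 8.30 CPM in SC cells at 8 cP and 14.3, 14.5 and 14.7 CPM with the hairpin, a log2 fold change of 0.74 (adjusted p = 1.78e-06), and GPD2 fell by 0.29 (adjusted p = 0.000148).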

How the data were processed

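Poly(A) RNA of 9 MDA-MB-231 samples was sequenced from stranded libraries. Per the labels and the study's methods, the authors aligned reads with HISAT2 (2.2.1) to GRCh38.p13 and counted them per gene with HTSeq (0.13.5). The strand setting of the counting is not given in the sources used here. The deposited values are raw counts per gene, with 64571681 to 103518036 counts per sample.

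Counts of all genes were tested with edgeR (4.0.16, R 4.3.3; quasi-likelihood test, TMM scaling, filterByExpr, 1 coefficient per group, all 9 samples, 6 residual degrees of freedom), and p-values were adjusted by Benjamini-Hochberg over the 18264 genes that passed the filter, with a threshold of 0.05. Standard errors are those of the fitted log2 fold changes. CPM are counts scaled to the library total times its TMM factor. DESeq2 (1.42.0), other scalings and filters, offsets for length and GC content, a replicate block and the omission of each sample were alternatives. The test was checked on simulated data. Lengths are those of canonical transcripts. The floor for a count of 0 is 3 counts and covers counting error only. Nothing in the labels says that the 3 samples of a group came from separate cultures, so that p-values measure the spread between these samples. Genes named with values were those called in a comparison, their close paralogs or partners, and members of the fixed lists. The members and lists were chosen with earlier results of these data known. The 3 comparisons share samples. Values of 1 member are not reported here by name, and it was left out of the heatmap but kept in all counts.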

Additional observations from a re-analysis of the deposited data

How the results depend on the processing

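The viscosity comparison depended most on the settings. Against 6 members higher and 2 lower (8 in all), 15 were lower (21 in all) without a filter on low counts and likewise with only the 6 samples of the comparison, 6 were lower (13 in all) with a GC offset, 4 were lower (13 in all) in DESeq2, 10 were higher with a length offset, and 3 were higher (5 in all) with the added threshold of 0.2. Between shTRPV4 and SC cells at 8 cP, against 6 lower (8 in all), 11 were lower (13 in all) without a filter and 12 (15 in all) with a length offset, with or without the replicate block. In the combined comparison, 18 were higher with a length offset, with or without the replicate block, against 8. Shares of all genes called are given above only for the main fit, the threshold of 0.2 and the length offset without the replicate block. The other counts of members called in this section have no such share beside them, and are not read as a result about the members. The cause of these shifts was not tested.

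Leaving out 1 sample at a time gave 1 to 8 higher, 0 to 15 lower and 1 to 23 called members for viscosity, 1 to 3, 2 to 16 and 4 to 18 for the hairpin at 8 cP, and 5 to 13, 20 to 31 and 25 to 38 for the combined comparison. The medians ran from −0.01 to 0.01, from −0.12 to −0.0022 and from −0.11 to −0.01. No value changed sign with a call. Of the 51 calls of members, each refitted under 10 other settings, 490 of 510 values kept the call and 20 lost it, 7 of them for ATP5F1A with viscosity. The other losses were of NDUFS4, NDUFV3 and UQCRB with viscosity and of NDUFS4 and SDHB with the hairpin. In the combined comparison they were of NDUFA11, NDUFB6 and ATP5ME.

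Groups share replicate numbers, but same-numbered samples did not deviate together (r of −0.05 to 0.09 over 9 pairs, against −0.11 to 0.11 over 18 pairs of different numbers), so the numbers were not read as a pairing. With the replicate block the calls were 6 higher and 0 lower for viscosity, 2 and 5 for the hairpin, and 8 and 27 for the combined comparison. With 3 samples a group, small changes can be missed at this depth.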

Other observations

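Genes of mitochondrial gene expression and of the matrix were read beside the respiratory chain. MYC, a transcription factor that also drives mitochondrial biogenesis genes, had 442.4, 433.0 and 426.5 CPM in SC cells at 0.77 cP and 194.6, 190.9 and 190.3 CPM in SC cells at 8 cP, a log2 fold change of −1.18 (adjusted p = 6.40e-10, edgeR). TWNK, the helicase of mitochondrial DNA, rose by 0.18 with viscosity (adjusted p = 0.0304) and by 0.37 with the hairpin (adjusted p = 0.000189). TFAM, which packages and transcribes mitochondrial DNA, rose by 0.13 with viscosity (adjusted p = 0.0462) and had 0.06 with the hairpin. With the hairpin PPARGC1B, PPRC1 and ESRRA also rose, by 0.54, 0.27 and 0.18 (adjusted p = 0.0499, 0.023 and 0.0153, edgeR). PPARGC1B was low, with a mean of 2.2 CPM in SC cells at 8 cP, and PPARGC1A had −0.10 and was not called. NRF1 had 0.01 with viscosity and 0.03 with the hairpin and was not called. Of the 19 tested regulators of mitochondrial biogenesis, 2 rose and 2 fell with viscosity, and 4 rose and none fell with the hairpin in edgeR (3 were lower at an unadjusted p under 0.05, and 0 in DESeq2). As shares these are 10.5% and 10.5% with viscosity and 21.1% higher with the hairpin, where 9.57% and 9.69% of all genes, and 9.02% higher, were called.

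Of 77 tested mitochondrial ribosomal proteins, which translate the mitochondrially encoded subunits, 23 rose and 6 fell in the combined comparison, with a median log2 fold change of 0.06. This is 29.9% and 7.79% of the list, where 20.4% of all genes rose and 22% fell. Of 82 tested cytosolic ribosomal proteins, also short transcripts, 6 rose and 46 fell in the same comparison, with a median of −0.16, that is 7.32% and 56.1% of the list. Of 14 TCA cycle enzymes 5 rose and 4 fell there, or 35.7% and 28.6%. CS, citrate synthase, rose by 0.40 (adjusted p = 0.000117), FH, fumarase, by 0.30 (adjusted p = 0.000650), and IDH2, the NADP-dependent isocitrate dehydrogenase, fell by 0.34 (adjusted p = 0.000225).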
